A study of Mus musculus with 18 samples.

Results

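Aminoacyl-tRNA synthetases are the enzymes that attach each amino acid to its tRNA. All 36 listed synthetase genes were found, by gene symbol, among the 24369 genes of the deposited expression table. Of these, 20 encode the enzymes of the cytosol, and 2 of the 20, *Gars* and *Kars*, supply the enzyme of both the cytosol and the mitochondrion. The other 16 have symbols ending in 2 and encode the mitochondrial enzymes. RNA was sequenced from mouse ESCs (mESCs) of the E14-derived line Rex1GFPd2-Cas9. Every sample carries a short-lived GFP reporter of *Rex1* (listed as *Zfp42*), a gene of naive pluripotency, and Cas9 expressed from the EF1α promoter at the Rosa26 locus. A time course of these cells, which carry no deletion, holds 3 libraries before differentiation (day 0) and 3 on each of days 1, 2 and 3. A second set holds reporter-positive (GFP+) cells that were wild-type, *Nprl2* KO or *Tsc2* KO, with 2 libraries of each genotype. Both KOs were made by deleting a critical exon on both alleles in cloned cells. The labels do not say whether the libraries of a genotype or day came from separate clones or cultures, so the p-values measure the spread between these libraries, which may be technical.

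In the cytosol, charged tRNAs supply the ribosome, and 8 of the synthetases (*Eprs*, *Iars*, *Lars*, *Mars*, *Qars*, *Rars*, *Kars* and *Dars*) sit together in the multisynthetase complex. In the mitochondrion, a separate set of nuclear-encoded enzymes charges the tRNAs that translate the mitochondrial genome. When amino acids are short, uncharged tRNAs activate the kinase Gcn2 (*Eif2ak4*), translation of the transcription factor *Atf4* rises, and *Atf4* induces amino acid synthesis genes and many cytosolic synthetases. *Nprl2* is a subunit of Gator1, which restrains mTORC1 when amino acids are scarce, and *Tsc2* is a subunit of the Tsc complex, which restrains mTORC1 in response to growth signals. Raised mTORC1 activity is also known to increase *Atf4*.

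Summed estimated counts ranged from 8610357 to 13780861 over the GFP+ libraries and from 12503005 to 15305054 over those of the time course. The lowest estimated count of a synthetase in a library was 71.9 (*Wars2*), so no member was near the detection limit. All 36 passed the filter on low counts in both sets. *Nprl2* itself was at 16.1 and 17.0 TPM (transcript abundance scaled for length and library total) in wild-type. In the *Nprl2* KO libraries it was at 8.09 and 8.65 TPM and in those of *Tsc2* KO at 16.5 and 20.8. For *Tsc2* the levels in the same order were 45.0 and 44.9, then 45.5 and 41.8, then 18.8 and 20.3 TPM. Each targeted mRNA was lowest in its own KO. Of the 7 markers listed for naive mESCs, *Pou5f1*, a general pluripotency gene, had means of 1716, 1748 and 1755 TPM in wild-type, *Nprl2* KO and *Tsc2* KO GFP+ cells. Those of *Sox2*, also a general pluripotency gene, were 357, 315 and 370 TPM. The summed level of the other 5 (*Nanog*, *Zfp42*, *Esrrb*, *Klf4* and *Tfcp2l1*), set apart after the values were seen, ranged over libraries from 1123 to 1157 TPM in wild-type, from 801 to 813 in *Nprl2* KO and from 2015 to 2080 in *Tsc2* KO. It ranged from 2246 to 2377 TPM on day 0 and from 118 to 186 on day 3. The sum of all 7 ranged from 3163 to 3264 TPM in wild-type, from 2699 to 3039 in *Nprl2* KO, from 4086 to 4259 in *Tsc2* KO, from 4527 to 4736 on day 0 and from 1275 to 1557 on day 3. The sum of 4 markers of formative or primed cells (*Fgf5*, *Otx2*, *Dnmt3b* and *Pou3f1*) ranged from 386 to 462 TPM in wild-type, from 532 to 624 in *Nprl2* KO and from 109.6 to 115 in *Tsc2* KO, and from 103 to 129 on day 0 and from 1209 to 1496 on day 3. The sums of the 5 naive and the 4 formative or primed markers did not overlap between the 3 genotypes or between day 0 and day 3, and their part in the results that follow was not tested. Because these are bulk samples, fewer cells of a type and less RNA per cell cannot be told apart.

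Mean levels over the 18 libraries did not overlap between the cytosolic and the mitochondrial enzymes. Averaged over the 18 libraries, the cytosolic members spanned 5.04-fold, from *Wars* at 74.7 TPM to *Kars* at 376 TPM. The mitochondrial members spanned 13.2-fold, from *Wars2* at 4.94 TPM to *Iars2* at 65.2 TPM. On these averages even the lowest cytosolic member lay above the highest mitochondrial one. This did not hold within every group. The lowest cytosolic and highest mitochondrial means were 60.9 and 68.7 TPM on day 1 and 63.2 and 66.4 TPM in wild-type GFP+ cells. They were 46.4 and 72.4 TPM in *Nprl2* KO and 43.9 and 73.7 TPM in *Tsc2* KO. For the 16 amino acid pairs, the cytosolic mRNA was above its mitochondrial counterpart in 18 of 18 libraries. The median ratio ran from 2.04 for *Yars* over *Yars2* to 40.0 for *Nars* over *Nars2*. Other narrow pairs were *Sars* over *Sars2*, with a median ratio of 2.30, and *Iars* over *Iars2*, with 2.48. In these pairs the ratio came closest in single libraries, with a lowest value of 1.10 for *Sars* over *Sars2* and 1.28 for *Yars* over *Yars2*. At the other end, *Eprs*, the only cytosolic enzyme for both glutamate and proline, was 25.3 times *Ears2* and 18.8 times *Pars2* in median.

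The highest cytosolic levels belonged to *Kars* (lysine), *Gars* (glycine), *Nars* (asparagine) and *Aars* (alanine), at 376, 322, 284 and 233 TPM over the 18 libraries. *Kars* and *Gars*, the genes that also supply the mitochondrion, thus ranked first and second of the 20 in this average. The ranking did not hold in every group. On day 0 *Nars* had a mean of 349 TPM, above *Gars* at 317 and *Kars* at 310. In *Tsc2* KO *Kars* was at 342 TPM, but *Eprs* (325) and *Nars* (319) were above *Gars* (314). The order among neighbours in the middle of the range was close, with *Farsb*, *Mars* and *Iars* at 163, 164 and 165 TPM, well within the changes that each of them showed between days. Among the mitochondrial enzymes, *Iars2*, *Tars2* and *Yars2* led at 65.2, 61.7 and 61.6 TPM, and *Ears2*, *Nars2* and *Wars2* were lowest at 8.04, 6.99 and 4.94 TPM. *Lars2* varied the most over the series, 3.52-fold between its lowest and highest library. It was at 26.7 and 23.2 TPM in wild-type GFP+ cells and at 59.0, 55.1 and 50.6 TPM on day 0. The libraries of the 2 sets were not tested against each other, so this stands as a description.

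The summed TPM of the 20 cytosolic members was 3145 ± 50.2 (SD, n = 2) in wild-type GFP+ cells, 3604 ± 87.6 for *Nprl2* KO and 3704 ± 62.3 for *Tsc2* KO. Both libraries of each KO lay above both wild-type libraries, whose sums were 3181 and 3110 TPM. The 16 mitochondrial members summed to 461 ± 21.4, 449.7 ± 9.35 and 469 ± 0.619 TPM in the same order, and these groups overlapped. With 2 libraries in a group, an exact permutation test of a single sum could not pass the 0.05 threshold, and none was run.

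In *Nprl2* KO, 9 of the 20 cytosolic synthetase mRNAs rose and 1 fell, and 0 of the 16 mitochondrial ones were called in either direction. A gene was called when the quasi-likelihood test of edgeR gave an adjusted p (Benjamini-Hochberg, over the 13724 genes tested) under 0.05. Of all these genes 6.43% were called, 2.78% higher and 3.65% lower. The 0 of 16 is near this share and is not read as a result about the mitochondrial members. Their SEs were also larger, with a median of 0.11 against 0.067 for the cytosolic members. The members that rose were *Nars*, *Cars*, *Gars*, *Lars*, *Yars*, *Aars*, *Tars*, *Sars* and *Iars*, with log2 fold changes from 0.27 to 0.70. *Wars*, the tryptophan enzyme, fell. The median log2 fold change was 0.13 for the cytosolic members and -0.02 for the mitochondrial members, against 0.00064 for all genes.

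*Nars*, which charges asparagine tRNA, was at 199 and 207 TPM in wild-type and 303 and 342 TPM in *Nprl2* KO (log2 fold change 0.70 ± 0.07 (SE), edgeR adjusted p = 1.70e-04). *Cars*, the cysteine enzyme, rose from 63.4 and 62.9 to 88.5 and 100.3 TPM (log2 fold change 0.61 ± 0.08 (SE), edgeR adjusted p = 6.23e-04). *Gars*, whose product serves both compartments, rose from 247 and 239 to 322 and 340.0 TPM (log2 fold change 0.48 ± 0.06 (SE), edgeR adjusted p = 0.00117). In each of the 3 genes both KO libraries lay above both wild-type libraries. Such separation, here and for called genes below, is no further support, because the genes were picked by the test on these same libraries. *Aars* rose from 176 and 172 to 227 and 223 TPM (log2 fold change 0.41 ± 0.06 (SE), edgeR adjusted p = 0.0015). *Yars*, for tyrosine, rose from 91.4 and 85.4 to 117 and 115 TPM (log2 fold change 0.43 ± 0.08 (SE), edgeR adjusted p = 0.00691). *Tars*, for threonine, rose from 146 and 149 to 185 and 196 TPM (log2 fold change 0.41 ± 0.07 (SE), edgeR adjusted p = 0.00401). These groups did not overlap either, and the rises were of similar size. *Sars*, for serine, showed a smaller rise, from 85.0 and 84.8 to 102 and 109.9 TPM (log2 fold change 0.36 ± 0.07 (SE), edgeR adjusted p = 0.00668). *Lars*, for leucine, had a log2 fold change of 0.44 (edgeR adjusted p = 0.00255) and *Iars*, for isoleucine, of 0.27 (edgeR adjusted p = 0.029). The call of *Iars* was lost whenever 1 wild-type or *Nprl2* KO library was left out and with limma on log2(TPM + 1). That of *Sars* was lost without the first wild-type or the second *Nprl2* KO library, and that of *Yars* without the second wild-type library.

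*Wars* moved the other way. It was at 75.2 and 71.7 TPM in wild-type and 48.8 and 43.9 TPM in *Nprl2* KO (log2 fold change -0.68 ± 0.08 (SE), edgeR adjusted p = 6.37e-04). The remaining 10 cytosolic members had log2 fold changes between -0.09 (*Dars*, aspartate) and 0.13 (*Farsa*, the alpha subunit of the phenylalanine enzyme), none of which passed the test. *Kars* stood at 382 and 366 TPM in wild-type and 379.8 and 387 TPM in *Nprl2* KO, and *Qars*, for glutamine, at 183 and 186 and 178 and 184 TPM. For both genes the genotypes overlapped.

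**Figure D1:**
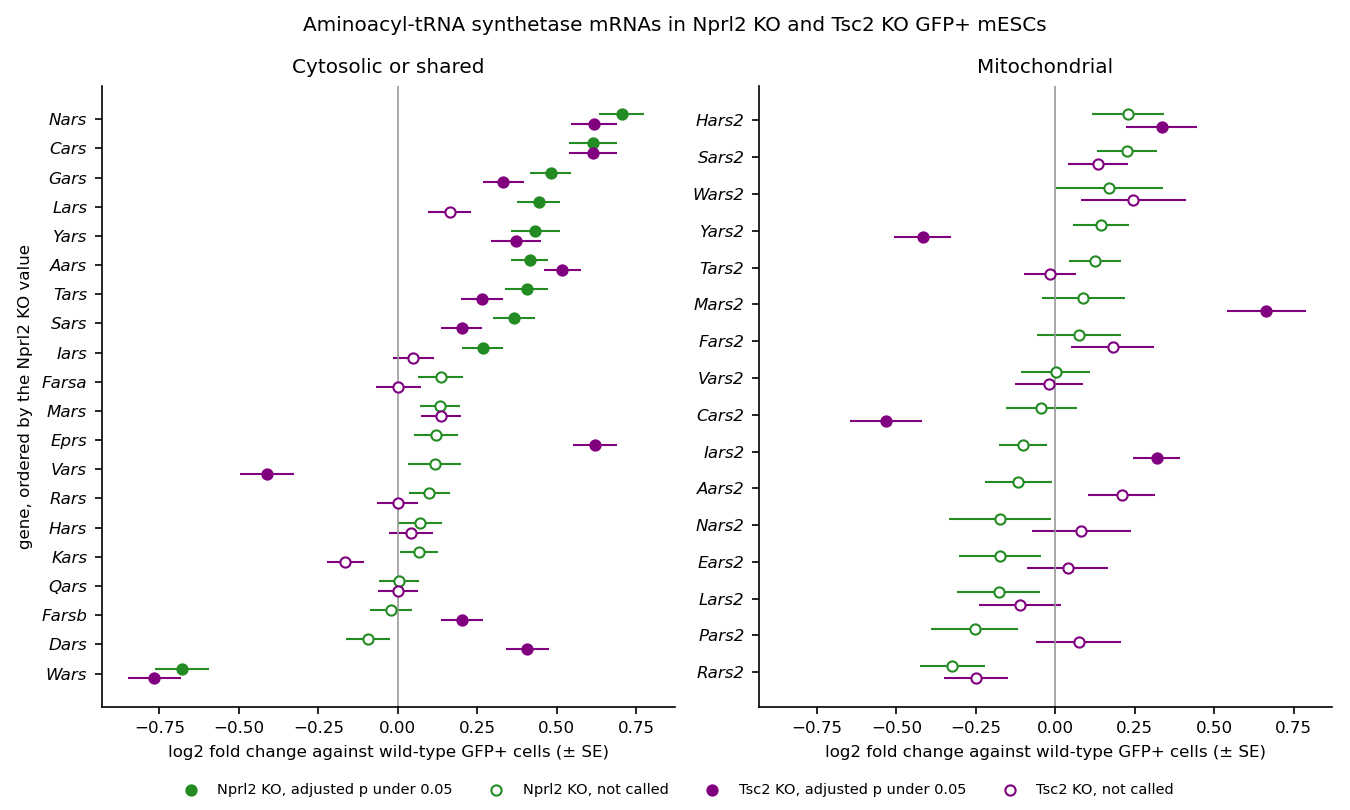
Log2 fold change (± SE) of each of the 36 synthetase mRNAs in *Nprl2* KO (green) and *Tsc2* KO (purple) against the same wild-type GFP+ libraries, with cytosolic or shared genes on the left and mitochondrial genes on the right, and filled points for an edgeR adjusted p under 0.05. On the left 9 green points are filled above 0 and 1 (*Wars*) below, and on the right no green point is filled.

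The cytosolic genes were also set out by membership of the multisynthetase complex. Of the 8 complex members, 2 (*Iars* and *Lars*) rose in *Nprl2* KO and 0 fell, with a median log2 fold change of 0.11. Of the 12 cytosolic members outside it, 7 rose and *Wars* fell, with a median of 0.385. For the complex members and the others, the medians were 0.09 and 0.23 in *Tsc2* KO against wild-type. On day 1 against day 0 they were -0.04 and -0.32. The difference between these groups was not tested in any comparison. The 3 scaffold proteins of the complex, *Aimp1*, *Aimp2* and *Eef1e1*, had log2 fold changes of 0.18, 0.07 and 0.22, and none was called.

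The 16 mitochondrial mRNAs ranged from a log2 fold change of -0.32 (*Rars2*, arginine) to 0.23 (*Hars2*, histidine) in *Nprl2* KO. By the edgeR test, 2 of the 16, *Rars2* and *Sars2*, had an unadjusted p under 0.05, 1 lower and 1 higher. DESeq2 and limma on log2(TPM + 1) also called 0. With no low-count filter, or with the replicate number as a block, 1 was called lower (*Rars2*). Of the mitochondrial partners of the cytosolic genes that rose most, *Nars2* had a log2 fold change of -0.17 (edgeR adjusted p = 0.589) and *Cars2* of -0.04 (edgeR adjusted p = 0.869). Their SEs were 0.16 and 0.11, above the 0.07 and 0.08 of *Nars* and *Cars*.

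Genes of the amino acid response moved in the same libraries. Of 12 regulators and targets listed, 8 rose in *Nprl2* KO and 0 fell, with a median log2 fold change of 0.73. *Atf4* rose from 191 and 186 to 279 and 283 TPM (log2 fold change 0.62, edgeR adjusted p = 1.51e-04). Among its targets, *Trib3*, a pseudokinase, had a log2 fold change of 1.48, *Chac1*, a glutathione-degrading enzyme, of 2.36, and *Psat1*, an enzyme of serine synthesis, of 1.25. *Asns*, the asparagine synthetase, did not pass the test (0.32, edgeR adjusted p = 0.34), nor did the kinase *Eif2ak4* (-0.14). The 11 other enzymes of tRNA charging and deacylation on the list (among them *Mtfmt*, *Qrsl1*, *Gatb*, *Gatc* and *Sepsecs*) gave 0 rises and 1 fall (*Ptrh2*, a peptidyl-tRNA hydrolase, -0.65), and the 5 cytosolic and 3 mitochondrial elongation factors gave 0 calls.

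A letter pattern near the start sites was looked for in these groups. The pattern TGATGNAA is the core of the C/EBP-ATF response element through which *Atf4* acts. It was searched on both strands, as TGATGNAA or its reverse complement TTNCATCA, in the 300 bases from 250 before to 50 after each transcript start in the RefSeq promoter table of GRCm38.p6, and no other motif was searched. Of the 36 members, 27 have an entry in that table. The 9 without one are *Cars*, *Hars*, *Lars*, *Nars*, *Rars*, *Vars*, *Wars*, *Hars2* and *Pars2*. The pattern was in 5 of the 27, compared with 3.97% of all 32851 promoters in the table. A member was counted if any of its entries held the pattern, whereas the share of the table is per entry. The share of all genes counted in the first way was not worked out. These 5 (*Aars*, *Gars*, *Iars*, *Tars* and *Yars*) are 5 of the 6 members that rose in *Nprl2* KO and have an entry, *Sars* being the other. It was in 0 of 7 cytosolic members that did not rise and in 0 of 14 mitochondrial members. The sites of *Gars*, *Iars*, *Tars* and *Yars* are shown with 11 bases on either side of the pattern, 5′ to 3′ and with the pattern in capitals, because these are matches counted above:
Gars, chr6:55037960-55037989 (-): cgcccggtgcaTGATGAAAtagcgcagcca
Iars, chr13:49682126-49682155 (-): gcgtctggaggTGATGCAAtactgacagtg
Tars, chr15:11399655-11399684 (+): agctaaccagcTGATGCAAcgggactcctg
Yars, chr4:129189895-129189924 (+): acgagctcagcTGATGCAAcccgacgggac

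The first base of the pattern on the gene's strand lay 30 bases before the start of *Gars* and 15 before that of *Tars*, and 7 and 3 bases after the starts of *Iars* and *Yars*. For *Yars* this is the start of a transcript in the promoter table. The annotated gene begins further upstream, at 129189734. In 3 of these 4 sites the base at the open position was C, giving TGATGCAA, and in that of *Gars* it was A. For *Gars*, the 250 bases upstream of the start are printed, with the pattern in capitals as it reads on the gene's strand. Those of *Qars*, a cytosolic member that did not rise and does not hold the pattern, follow for comparison. A match is a description of the letters in this window, and no binding was measured.
Gars, chr6:55037751-55038000 (+): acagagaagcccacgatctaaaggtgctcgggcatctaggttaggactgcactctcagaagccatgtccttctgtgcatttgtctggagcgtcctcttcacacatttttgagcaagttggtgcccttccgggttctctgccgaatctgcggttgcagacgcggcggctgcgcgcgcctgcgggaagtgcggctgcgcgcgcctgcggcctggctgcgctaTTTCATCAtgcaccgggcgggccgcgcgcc
Qars, chr9:108507755-108508004 (+): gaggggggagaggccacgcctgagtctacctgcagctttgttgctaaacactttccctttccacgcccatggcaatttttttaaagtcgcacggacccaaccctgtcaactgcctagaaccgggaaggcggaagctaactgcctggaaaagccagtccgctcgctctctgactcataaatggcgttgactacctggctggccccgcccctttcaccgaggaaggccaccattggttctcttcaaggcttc

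In *Tsc2* KO, compared with the same 2 wild-type libraries, 10 of the 20 cytosolic members rose and 2 fell, and 3 of the 16 mitochondrial members rose and 2 fell. Of all genes tested 29.1% were called, 14.9% higher and 14.2% lower, so calls were more common here than in *Nprl2* KO. The median log2 fold change was 0.18 for the cytosolic and 0.08 for the mitochondrial members, against 0.0048 for all genes. Because both KOs were set against the same wild-type libraries, their values are given side by side and no agreement between them is counted.

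*Aars* stood at 251 and 259 TPM in *Tsc2* KO (log2 fold change 0.52 ± 0.06 (SE), edgeR adjusted p = 5.10e-05), above both the wild-type and the *Nprl2* KO libraries. *Cars* stood at 98.9 and 100.5 TPM (log2 fold change 0.61, beside 0.61 in *Nprl2* KO) and *Nars* at 323 and 315 TPM (0.62 beside 0.70). *Gars* was at 322 and 305 TPM (0.33 beside 0.48) and *Yars* at 125 and 109.9 TPM (0.37 beside 0.43). All of these libraries lay above the wild-type ones. *Tars*, at 186 and 178 TPM, had a log2 fold change of 0.27 (edgeR adjusted p = 0.0102), and *Sars*, at 100.4 and 99.3 TPM, of 0.20 (edgeR adjusted p = 0.0371). The call of *Sars* was lost with DESeq2, with no low-count filter and when either wild-type or either *Tsc2* KO library was left out, and that of *Tars* without the first wild-type or the first *Tsc2* KO library. *Wars* was again low, at 43.2 and 44.6 TPM (log2 fold change -0.77 ± 0.08 (SE), edgeR adjusted p = 4.37e-05), so that in both KOs every library lay below the wild-type range of this gene. *Iars* and *Lars* had values of 0.05 and 0.16 in *Tsc2* KO and were not called.

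*Eprs*, the glutamate and proline enzyme, had a rise in *Tsc2* KO as large as that of *Nars*. It was at 200.3 and 213 TPM in wild-type, 213 and 222 TPM in *Nprl2* KO and 338 and 312 TPM in *Tsc2* KO (log2 fold change 0.62 ± 0.07 (SE), edgeR adjusted p = 4.87e-05). *Dars* had a log2 fold change of 0.41 and *Farsb*, the beta subunit of the phenylalanine enzyme, of 0.20. The call of *Farsb* was lost under the same conditions as that of *Sars*. *Vars*, the valine enzyme, fell (log2 fold change -0.41 ± 0.08 (SE), edgeR adjusted p = 0.00379). It was at 142 and 123 TPM in wild-type and 103 and 101 TPM in *Tsc2* KO. *Kars* was at 342 and 342 TPM in *Tsc2* KO (log2 fold change -0.16), which did not pass the test (edgeR adjusted p = 0.0534), and *Qars* at 182 and 195 TPM.

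Of the mitochondrial enzymes, *Mars2*, for methionine, rose the most in *Tsc2* KO. It was at 10.9 and 10.9 TPM in wild-type, 11.2 and 11.3 TPM in *Nprl2* KO and 16.5 and 18.9 TPM in *Tsc2* KO (log2 fold change 0.66 ± 0.12 (SE), edgeR adjusted p = 0.00186). *Iars2* rose from 56.0 and 59.5 to 71.3 and 76.2 TPM (log2 fold change 0.32 ± 0.07 (SE), edgeR adjusted p = 0.0067), a call that was lost without the first wild-type or the second *Tsc2* KO library. *Hars2* had a log2 fold change of 0.33 (edgeR adjusted p = 0.0409), a call that was lost with DESeq2 and whenever 1 of the 6 libraries was left out. *Cars2* fell from 39.6 and 35.1 to 26.6 and 26.5 TPM (log2 fold change -0.53 ± 0.11 (SE), edgeR adjusted p = 0.00404). *Yars2* fell from 68.3 and 64.6 to 51.2 and 51.2 TPM (log2 fold change -0.42 ± 0.09 (SE), edgeR adjusted p = 0.0043). In *Nprl2* KO, *Cars2* was at 38.2 and 33.2 TPM, overlapping with wild-type, and *Yars2* at 74.3 and 70.5 TPM, above it, and neither was called. The lowest member of the family, *Wars2*, was at 4.41 and 3.59 TPM in wild-type, 4.31 and 4.49 TPM in *Nprl2* KO and 4.94 and 4.85 TPM in *Tsc2* KO, and was not called.

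**Figure D2:**
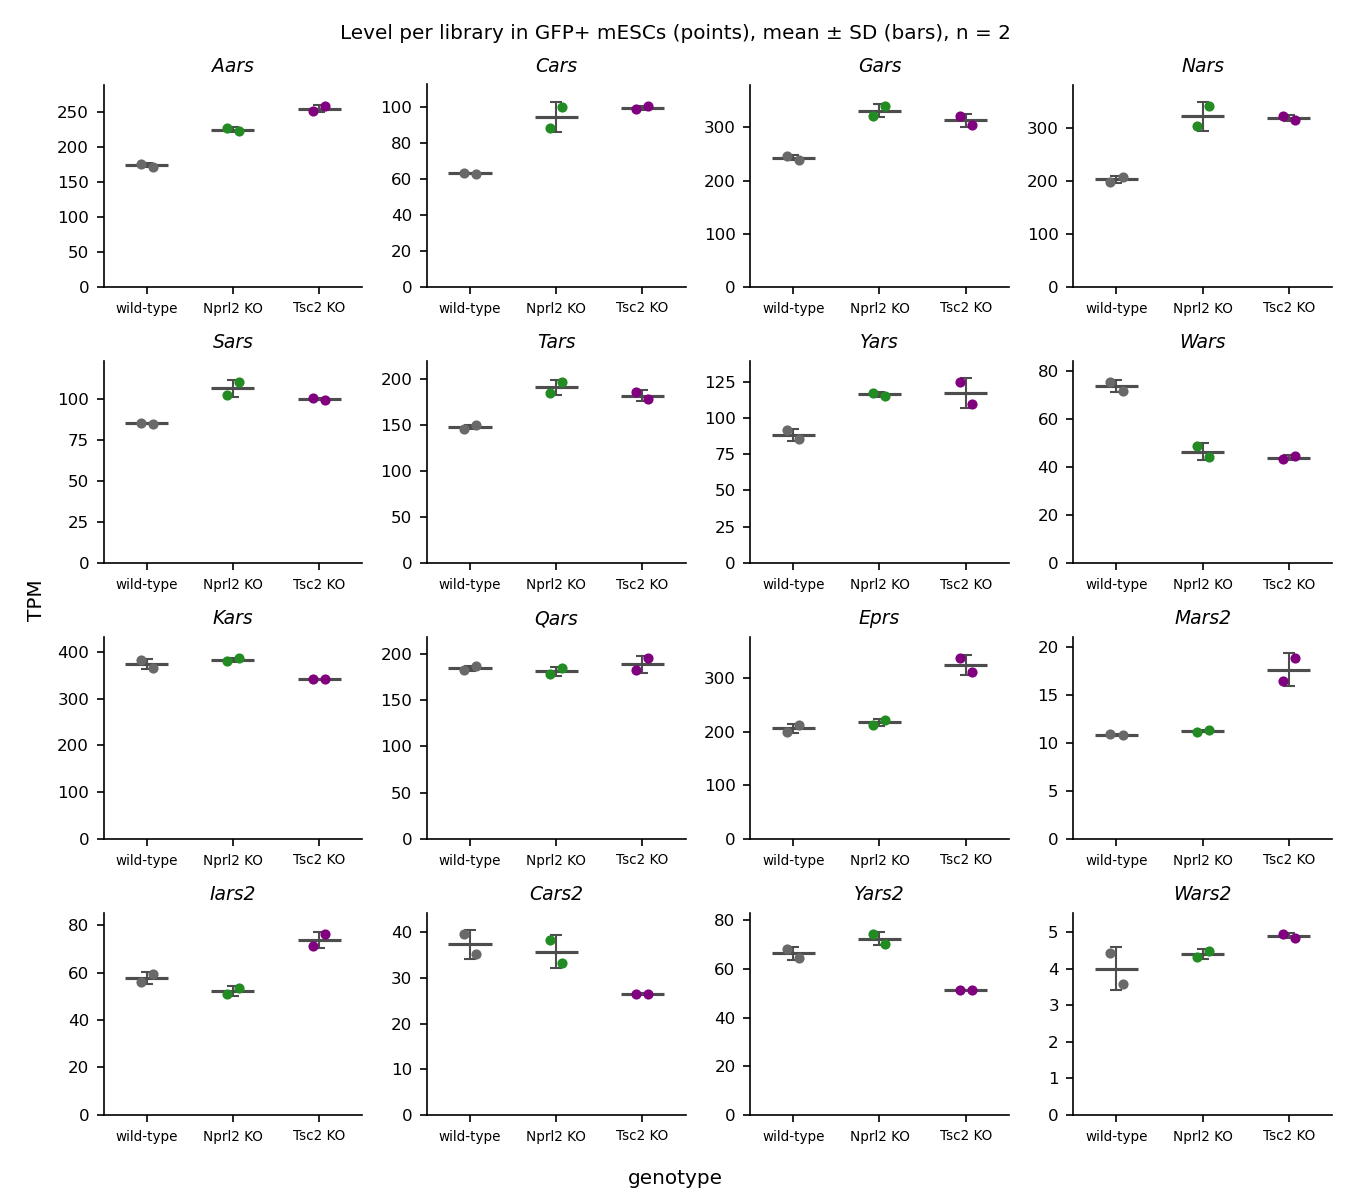
TPM per library (points) of 16 synthetase mRNAs in wild-type (grey), *Nprl2* KO (green) and *Tsc2* KO (purple) GFP+ cells, with the mean and SD of 2 libraries as bars. *Aars*, *Cars*, *Gars*, *Nars*, *Sars*, *Tars* and *Yars* lie above wild-type in both KOs and *Wars* lies below, whereas *Eprs*, *Mars2* and *Iars2* stand above wild-type in *Tsc2* KO, and *Cars2* and *Yars2* below it.

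The changes in *Tsc2* KO were also set out by chromosome. Over all genes tested on chromosome 1, the median log2 fold change in *Tsc2* KO was 0.37, whereas the medians of the other chromosomes lay between -0.11 and 0.04. In *Nprl2* KO the median of chromosome 1 was -0.0077. The 5 synthetase genes on chromosome 1 (GRCm38.p6) are *Dars* (128363707-128417416), *Eprs* (185361417-185428360), *Farsb* (78417958-78488897), *Iars2* (185286642-185329419) and *Mars2* (55237177-55240058). All 5 were called higher in *Tsc2* KO, with a median log2 fold change of 0.41. Of the 31 members on other chromosomes, 8 rose and 4 fell, with a median of 0.07. After subtraction of the chromosome median, *Mars2* was at 0.29, *Eprs* at 0.25 and *Dars* at 0.04, while *Iars2* (-0.05) and *Farsb* (-0.17) changed sign. Without the genes on chromosome 1, 7 of 17 cytosolic members rose and 2 fell, and 1 of 14 mitochondrial members rose and 2 fell. The part of the shift of chromosome 1 in these calls was not tested.

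Setting the KOs directly against each other, *Tsc2* KO had 3 cytosolic members called higher and 4 lower relative to *Nprl2* KO, and 3 mitochondrial members higher and 2 lower. Of all genes 34.2% were called, 17.5% higher and 16.6% lower. The higher share was 51.3% of all calls here and 61.7% with limma on log2(TPM + 1). The higher ones were *Dars* (0.50), *Eprs* (0.50), *Farsb* (0.22), *Mars2* (0.58), *Iars2* (0.42) and *Aars2* (0.32), and of these only *Aars2* is not on chromosome 1. The calls of *Farsb* and *Aars2* were each lost in 3 of 11 alternatives, with adjusted p up to 0.11 for *Farsb* (edgeR without the first *Nprl2* KO library) and 0.191 for *Aars2* (edgeR without the first *Tsc2* KO library). The lower ones were *Vars* (-0.53), *Lars* (-0.28), *Kars* (-0.23), *Iars* (-0.22), *Yars2* (-0.56) and *Cars2* (-0.49). The call of *Iars* was lost in 3 of 11 alternatives (edgeR adjusted p = 0.2105 without the second *Tsc2* KO library). For *Cars*, the difference between the KOs was 0.00083 ± 0.07 (SE), and for *Nars* -0.09 ± 0.07. Those of *Aars* (0.10), *Gars* (-0.15) and *Wars* (-0.09) also failed the test, which does not show that the KOs act alike on these genes. Without the second *Tsc2* KO library, 1 cytosolic member in place of 4 was called lower, and without the first *Nprl2* KO library 1 mitochondrial member in place of 2.

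The amino acid response list gave 8 rises and 0 falls in *Tsc2* KO, with a median log2 fold change of 0.69. *Atf4* was at 314 and 313 TPM (log2 fold change 0.70, edgeR adjusted p = 9.19e-06), *Trib3* had a value of 1.13 and *Asns* of 0.98. Between the KOs, 5 genes of the list were lower and 1 (*Asns*) higher in *Tsc2* KO. Of the cytosolic elongation factors, *Eef1b2* (-0.35) and *Eef2* (-0.38) fell in *Tsc2* KO. The complex scaffolds gave 0 calls against wild-type. Among the other charging enzymes only *Dtd1*, a D-aminoacyl-tRNA deacylase, was called, with a fall (-1.03).

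The summed level of 8 feeder fibroblast markers was 109.9 to 156.5 TPM in wild-type, 116 to 120.4 TPM in *Nprl2* KO and 40.1 to 139 TPM in *Tsc2* KO. Over the time course it was between 10.4 and 46.2 TPM, where *Thy1*, which is not restricted to fibroblasts, went from a mean of 4.38 TPM on day 0 to 30.1 on day 3 while *Col1a1* was at 4.20 and 1.17, so that the sum does not follow *Col1a1* there. In wild-type the list was led by *Col1a1*, a collagen of fibroblasts, with a mean of 61.4 TPM, and *Lum* was under 1 TPM in all libraries. Between the 2 *Tsc2* KO libraries, which differed the most in these markers, the cytosolic sums were 3748 and 3659.6 TPM.

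On day 1 of differentiation, 10 of the 20 cytosolic members fell and 5 rose relative to day 0, and 5 of the 16 mitochondrial members fell and 1 rose. Of all 14380 genes tested in the time course, 60.9% were called, 30.8% lower and 30.1% higher. The cytosolic median log2 fold change was -0.18 and the mitochondrial one -0.10, against 0.00068 for all genes. The summed TPM of the cytosolic members went from 3850 ± 38.9 (SD, n = 3) on day 0 to 3291 ± 38.7 on day 1, 3735 ± 58.3 on day 2 and 3616 ± 163 on day 3. The 3 libraries of day 1 were the 3 lowest of the 12. The mitochondrial sums were 535 ± 9.34, 490.4 ± 14.4, 486 ± 5.07 and 477 ± 4.77 TPM, with day 0 above all later libraries.

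*Sars* and *Cars* showed the largest falls on day 1. *Sars* was at 125, 146 and 119 TPM on day 0, 59.9, 62.1 and 60.6 on day 1, 108, 120.1 and 128 on day 2 and 142, 146 and 141 on day 3. Its log2 fold change was -1.02 ± 0.07 (SE) on day 1 against day 0 (edgeR adjusted p = 3.65e-10) and 0.85 ± 0.07 on day 2 against day 1 (edgeR adjusted p = 7.19e-09). *Cars* was at 146, 153 and 132 TPM on day 0, 67.4, 67.7 and 70.7 on day 1, 101, 98.4 and 99.8 on day 2 and 91.6, 98.4 and 105 on day 3 (day 1 against day 0, log2 fold change -1.001 ± 0.06 (SE), edgeR adjusted p = 4.95e-11). *Sars* thus ended near its day 0 level (0.05 on day 3 against day 0, edgeR adjusted p = 0.504), while *Cars* stayed lower (-0.63, edgeR adjusted p = 1.66e-08).

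*Nars* was at 342, 365 and 339 TPM on day 0, 188, 191 and 196 on day 1, 294, 307 and 312 on day 2 and 279.8, 307 and 296 on day 3. *Yars* followed the same course, with 158, 142 and 146, then 89.9, 92.1 and 95.8, then 121, 136 and 124, then 122, 133 and 140.3 TPM. *Aars* was at 275, 275 and 288 TPM on day 0, 185, 197 and 203 on day 1, 247, 249 and 257 on day 2 and 219, 245 and 241 on day 3. In all 3 genes the day 1 libraries were the lowest and did not overlap with any other day. *Gars* went below its day 0 level on day 1 and above it afterwards, with 317, 329 and 303 TPM on day 0, 244, 249.9 and 251 on day 1, 376, 405 and 396 on day 2 and 385, 389.9 and 382 on day 3 (day 3 against day 0, log2 fold change 0.20 ± 0.05 (SE), edgeR adjusted p = 0.00199). *Iars* had log2 fold changes of -0.51 on day 1 and 0.46 on day 2, each against the day before.

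Other members that fell on day 1 did not come back. *Tars* was at 216, 227 and 207 TPM on day 0, 161, 161 and 164 on day 1, 168, 183 and 157 on day 2 and 143, 164 and 168 on day 3 (day 3 against day 0, log2 fold change -0.54 ± 0.07 (SE), edgeR adjusted p = 7.08e-07). *Qars* was at 232, 211 and 218 TPM on day 0, 154, 151 and 156 on day 1, 149, 145 and 155 on day 2 and 148, 153 and 161 on day 3 (day 3 against day 0, log2 fold change -0.59 ± 0.05 (SE), edgeR adjusted p = 9.38e-09). *Mars*, for methionine, had a value of -0.36 on day 1 and -0.34 on day 3, both against day 0. In these 3 genes every later library lay below every day 0 library.

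A smaller group of cytosolic members rose on day 1, namely *Kars*, *Vars*, *Farsa*, *Hars* and *Rars*. *Kars* changed the most, from 314, 291 and 325 TPM on day 0 to 441, 435 and 439 on day 1, then 411, 389 and 395 on day 2 and 360.5, 384 and 387 on day 3 (day 1, log2 fold change 0.57 ± 0.05 (SE), edgeR adjusted p = 3.76e-08). The other 4 had log2 fold changes between 0.20 (*Rars*) and 0.27 (*Vars*) on day 1. Each of the 5 was called lower on day 2 than on day 1, with values from -0.25 (*Kars*) to -0.39 (*Rars*). *Eprs* and *Wars* were called in neither of these steps. *Eprs* was at 202, 199 and 199.8 TPM on day 0 and 169, 193 and 203 on day 3, and *Wars* at 78.0, 69.0 and 76.2 TPM on day 0, 81.0, 80.2 and 77.4 on day 1, 83.0, 91.4 and 84.5 on day 2 and 92.2, 99.0 and 105 on day 3 (day 3 against day 0, log2 fold change 0.24 ± 0.06 (SE), edgeR adjusted p = 0.002).

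**Figure D3:**
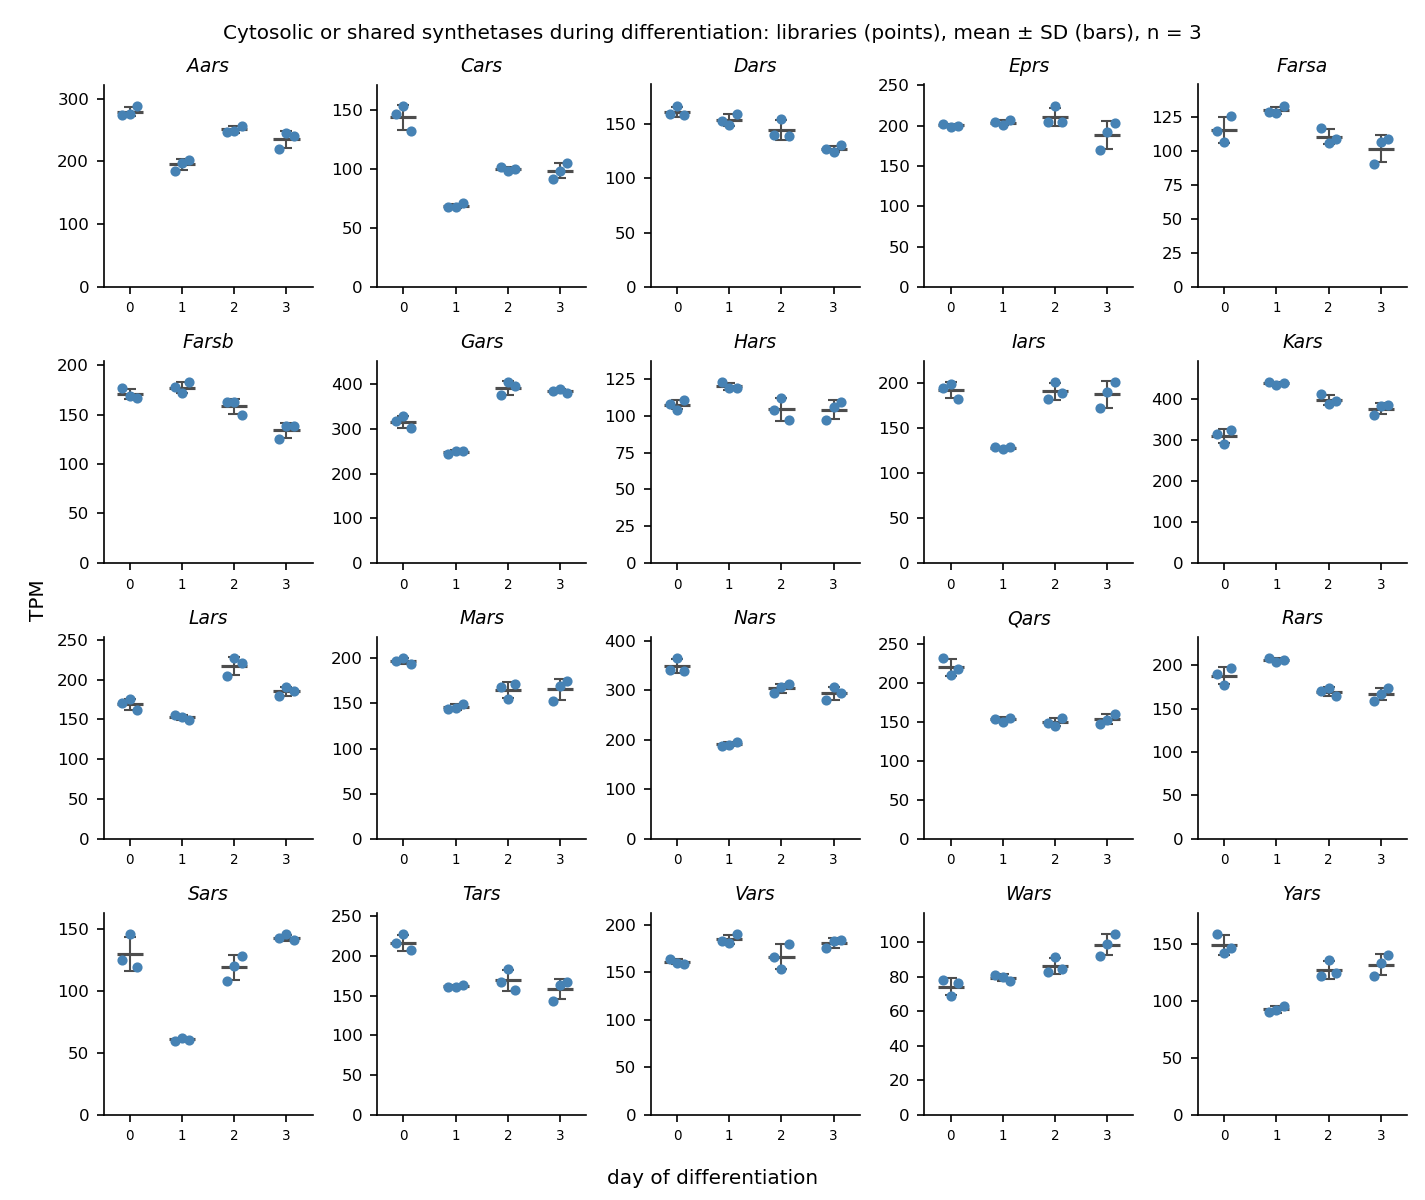
TPM per library (points) of the 20 cytosolic or shared synthetases before differentiation (day 0) and on days 1, 2 and 3, with the mean and SD of 3 libraries as bars and axes that start at 0. *Cars*, *Sars*, *Nars* and *Yars* dip on day 1, *Kars* peaks there, and *Qars* and *Tars* step down after day 0.

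On day 2 against day 1, 8 cytosolic members rose and 8 fell, and 3 mitochondrial members rose and 7 fell, against 62.1% of all genes called, 32.5% higher and 29.6% lower. The median of all genes was 0.022 here, but 0.10 with upper-quartile normalization and 0.11 with limma on log2(TPM + 1), so small differences in this step depend on the scaling. The share of all calls that were higher was 52.4%, and 63.8% with limma. The 8 cytosolic rises were *Sars*, *Nars*, *Gars*, *Iars*, *Cars*, *Lars*, *Yars* and *Aars*, from 0.25 to 0.85. The day 1 and day 2 comparisons share the day 1 libraries, so no agreement between them is counted. On day 3 against day 2, 1 cytosolic member rose (*Sars*, 0.22) and 4 fell (*Farsb*, *Lars*, *Dars* and *Eprs*, from -0.29 to -0.21), and 1 mitochondrial member rose (*Aars2*, 0.29) and 3 fell (*Ears2*, *Sars2* and *Rars2*). Of all genes 31.5% were called, 15.9% higher and 15.6% lower. The count of cytosolic rises was 0 without the first day 2 library or the second day 3 library, and the count of mitochondrial falls was 0 without the first or the second day 2 library or the first day 3 library.

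Over the whole course, 12 cytosolic members were lower and 3 (*Gars*, *Kars* and *Wars*) higher on day 3 than on day 0, and 9 mitochondrial members were lower and 1 (*Iars2*) higher. Of all genes 70.9% were called, 35.9% lower and 35.0% higher. The median log2 fold change was -0.26 for the cytosolic and -0.29 for the mitochondrial members, against -0.01 for all genes. The cytosolic falls other than *Cars*, *Qars* and *Tars* lay between -0.44 (*Farsb*) and -0.18 (*Eprs*). *Hars*, *Iars*, *Lars*, *Sars* and *Vars* were not called.

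The largest changes over the course were in mitochondrial members. *Mars2* was at 14.9, 13.9 and 15.1 TPM on day 0, 11.2, 10.7 and 11.6 on day 1, 9.52, 10.0 and 9.23 on day 2 and 8.32, 9.23 and 7.84 on day 3 (day 3 against day 0, log2 fold change -0.87 ± 0.10 (SE), edgeR adjusted p = 2.26e-07). *Fars2*, for phenylalanine, was at 24.5, 24.5 and 28.6 TPM on day 0, 19.6, 18.6 and 20.8 on day 1, 16.2, 13.2 and 12.4 on day 2 and 14.4, 15.5 and 16.0 on day 3 (log2 fold change -0.81 ± 0.11 (SE), edgeR adjusted p = 2.36e-06). *Cars2* was at 45.2, 39.9 and 36.6 TPM on day 0, 39.7, 40.7 and 43.9 on day 1, 27.6, 26.5 and 30.8 on day 2 and 22.3, 26.2 and 25.6 on day 3 (log2 fold change -0.80 ± 0.09 (SE), edgeR adjusted p = 1.64e-07). *Mars2* and *Fars2* were already lower on day 1, the call of *Mars2* holding in 17 of 17 alternatives and that of *Fars2* in 13 (edgeR adjusted p = 0.1415 without the third day 0 library), whereas *Cars2* was not called then (0.10) and fell on day 2 (-0.66). *Aars2*, *Sars2*, *Pars2*, *Tars2*, *Rars2* and *Hars2* also ended lower, with values from -0.74 to -0.27.

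*Iars2* was the only mitochondrial member called higher on day 3 than on day 0, and 6 were called in neither direction. *Iars2* was at 61.7, 56.9 and 61.0 TPM on day 0, 53.2, 51.4 and 51.5 on day 1, 73.2, 71.7 and 82.4 on day 2 and 82.0, 82.5 and 78.2 on day 3 (log2 fold change 0.35 ± 0.06 (SE), edgeR adjusted p = 4.45e-05). *Yars2* rose on day 1 (51.2, 56.7 and 51.7 TPM on day 0, 70.3, 67.3 and 68.6 on day 1, log2 fold change 0.44 ± 0.09 (SE), edgeR adjusted p = 1.97e-04) and was at 62.8, 66.8 and 51.8 TPM on day 2 and 59.8, 61.9 and 60.6 on day 3. *Wars2* was at 5.83, 5.38 and 3.91 TPM on day 0 and 5.94, 5.42 and 6.63 on day 3 and was called in no step, as were *Nars2* and *Vars2*. *Hars* and *Hars2*, which are called differently at several steps, are neighbouring genes read in opposite directions whose annotated ends overlap (*Hars* ends at 36783205 and *Hars2* starts at 36783202 on chromosome 18, GRCm38.p6), and the strand setting of the counting is not given in the sources used here.

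**Figure D4:**
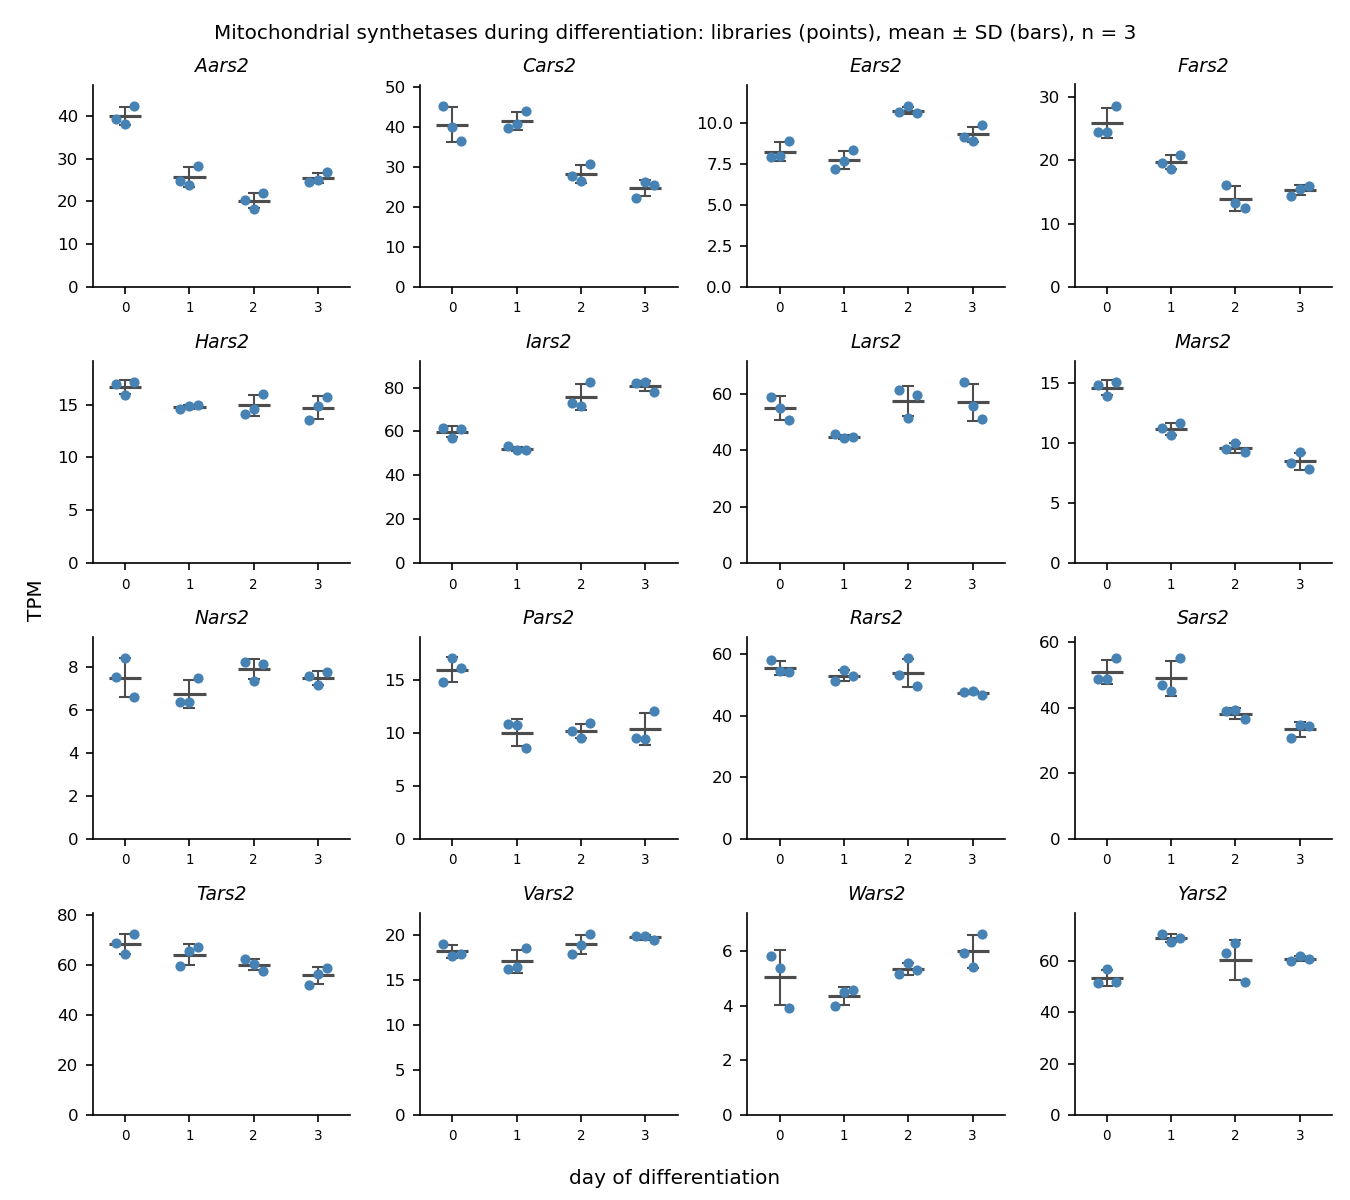
TPM per library (points) of the 16 mitochondrial synthetases on days 0 to 3, with the mean and SD of 3 libraries as bars and axes that start at 0. *Mars2*, *Fars2* and *Cars2* end lowest relative to day 0, and *Iars2* ends above it.

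The amino acid response list changed with the same days. On day 1, 9 of its 12 genes fell and 0 rose, with a median log2 fold change of -1.26, and on day 2 against day 1, 10 rose and 0 fell, with a median of 1.71. *Atf4* was at 355, 399.8 and 436 TPM on day 0, 208, 234 and 235 on day 1, 304, 327 and 323 on day 2 and 377, 376 and 348 on day 3. *Trib3* went from 37.6, 39.0 and 37.6 to 9.34, 9.60 and 9.13 and then 38.1, 33.4 and 30.8 TPM. *Asns* fell on day 1 (-1.57) and remained low on day 3 against day 0 (-1.43). The mitochondrial elongation factors *Tufm* and *Gfm1* moved the other way, with rises on day 1 (0.25 and 0.36) and falls on day 2 (-0.43 and -0.37), and the complex scaffold *Eef1e1* did the same (0.32 and -0.58).

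The GFP+ comparison and the time course share no libraries, so their calls can be set side by side. Of the 9 cytosolic members that rose in *Nprl2* KO, 8 fell on day 1 (all but *Lars*), which is 88.9% of the first list and 80% of the 10 that fell on day 1. Over the 13413 genes tested in both sets, 95 of the 376 that rose in *Nprl2* KO fell on day 1, or 25.3%. These 95 were 2.23% of the 4269 that fell on day 1. Of all genes tested in the time course, 30.8% fell. The 2 cytosolic members that fell on day 1 and did not rise in *Nprl2* KO were *Mars* and *Qars*. The 8 cytosolic members that rose on day 2 against day 1 were 88.9% of the *Nprl2* KO list, *Tars* being the exception, and 100% of the day 2 list. Over all genes, the overlap was 37.0% of those that rose in *Nprl2* KO and 3.32% of those that rose on day 2. None of the 5 cytosolic members that rose on day 1 was called in *Nprl2* KO, with log2 fold changes there between 0.07 (*Kars*) and 0.13 (*Farsa*). Of all genes tested, 6.43% were called in *Nprl2* KO, so the lack of calls among these 5 is near that share. All 5 genes with the TGATGNAA pattern are among the 8 shared with the day 1 list. This follows from the counts above and adds nothing to them. All 5 rose in *Nprl2* KO, and *Lars*, the only such riser that did not fall on day 1, has no promoter entry. Of the 10 cytosolic members that rose in *Tsc2* KO, 7 fell on day 1, 70% of each list. Over all genes, the overlap was 58.6% of those that rose in *Tsc2* KO and 27.8% of those that fell on day 1. The other 3 cytosolic members that rose in *Tsc2* KO were *Dars*, *Eprs* and *Farsb*, all on chromosome 1. *Wars*, which fell in both KOs, did not fall on day 1 (0.13, edgeR adjusted p = 0.0732).

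**Figure D5:**
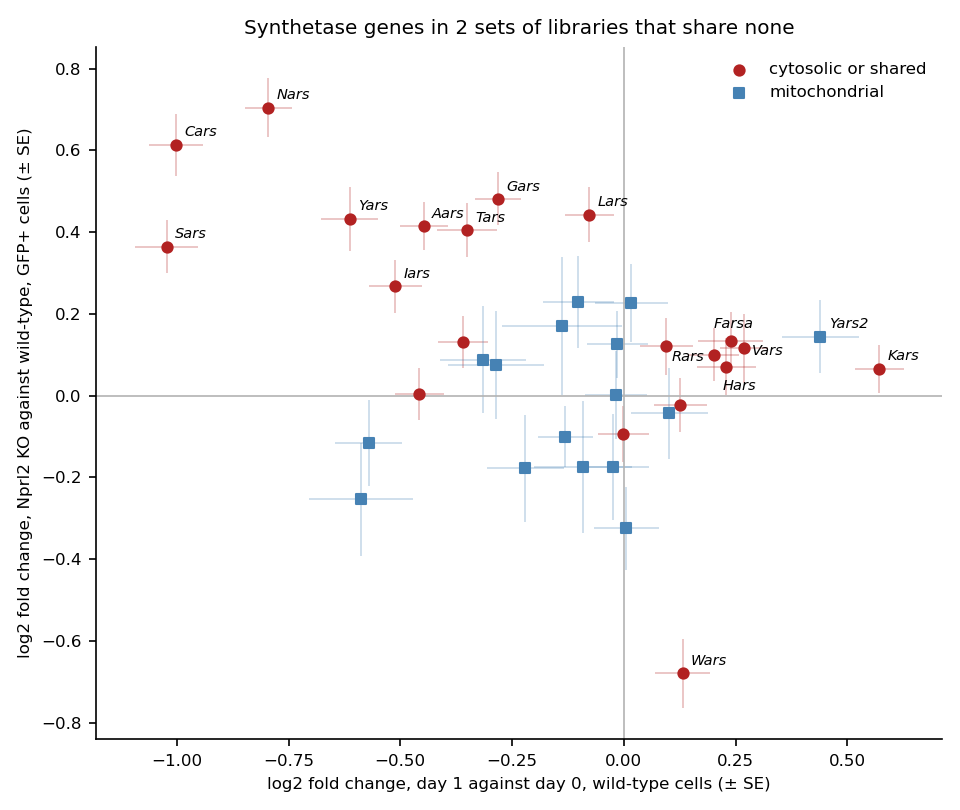
Log2 fold change (± SE) of the 36 synthetase mRNAs on day 1 against day 0 (horizontal) and in *Nprl2* KO against wild-type GFP+ cells (vertical), with cytosolic or shared genes as red circles and mitochondrial genes as blue squares. The labelled genes of the upper left rose in *Nprl2* KO, and all of them but *Lars* were called lower on day 1. The mitochondrial genes lie between -0.32 and 0.23 on the vertical axis, and *Wars* stands alone at the bottom.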

How the data were processed

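Estimated counts per RefSeq transcript, and TPM computed from them within each library, were deposited by the authors, who used kallisto 0.42.1 on mm10 per the submitters' processing notes. The authors' TPM per gene were used for levels. The 2 tables of the authors' own DESeq2 comparisons (fold changes and p values) were not used. GFP+ libraries were stranded, paired-end mRNA libraries, and the preparation of the time course is not given in the sources used here.

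Transcripts were assigned to genes through RefSeq (33713 of 34079) and GENCODE M21 (192). Transcripts without a gene held 1.65% to 3.57% of counts. The gene table adds a transcript of *Qars* that is not in the counts here. Expected counts were summed per gene, rounded and tested with edgeR 4.0.16 in R 4.3.3 (TMM, the low-count filter, robust quasi-likelihood fits, Benjamini-Hochberg adjustment, threshold 0.05), with all GFP+ libraries in one fit and all time-course libraries in another. The SE is the log2 fold change divided by the square root of F. The scripts were tested on simulated data. Replicates differed by more than sampling noise (chi-square per gene between 1.82 and 9.06, for genes with at least 20 counts). Libraries of a group are listed in the order of their labelled numbers.

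Every member was fitted, and the text gives each library for the 3 called members of each set with the largest change in either KO against wild-type or on day 3 against day 0, those called in both KOs, the highest and lowest of each set, and *Gars* and *Kars*. The motif sites of *Aars* are not reported here. The members, lists and motif were chosen with earlier results of these data known. The alternatives were DESeq2 1.42.0, limma 3.58.1 on log2(TPM + 1), upper-quartile scaling, no low-count filter, a replicate block, subtraction of the chromosome median and leaving out each library.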

Additional observations from a re-analysis of the deposited data

Results flagged for a closer look

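The effects of the KOs, set directly against each other, differed for 12 of the 36 members by the edgeR test of the difference itself. Of all genes tested, 34.2% were called in this comparison, so the count is not particular to the synthetases. Of the 12, 10 were also called against wild-type in *Nprl2* KO, *Tsc2* KO or both. Given as the *Tsc2* KO effect minus the *Nprl2* KO effect on the log2 scale, the difference was 0.50 for *Dars*, 0.50 for *Eprs*, 0.22 for *Farsb*, 0.42 for *Iars2* and 0.58 for *Mars2*, all of which lie on chromosome 1. It was -0.22 for *Iars*, -0.28 for *Lars*, -0.53 for *Vars*, -0.49 for *Cars2* and -0.56 for *Yars2*. The calls of *Farsb* and *Iars* were each lost in 3 of 11 alternatives. In TPM, both libraries of one KO lay on one side of both libraries of the other for each of these 10 genes. The genes were picked by the test on these same libraries, so this separation is no further support.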

How the results depend on the processing

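For single members and comparisons, 243 of 252 results stayed on the same side of the threshold with DESeq2, 243 with upper-quartile normalization, 248 without the filter on low counts, 232 with limma on log2(TPM + 1) and 243 with the replicate block. Under these settings no member called in either fit changed sign. Among values called in neither, the sign changed for 5 with DESeq2, 11 with upper-quartile normalization, 5 without the filter, 21 with limma and 1 with the block, and upper-quartile normalization moved the median of all genes on day 2 against day 1 from 0.022 to 0.101. After subtraction of the chromosome median, *Farsb* (-0.17) and *Iars2* (-0.052) changed sign in *Tsc2* KO against wild-type, and *Farsb* (-0.14) in *Tsc2* KO against *Nprl2* KO. Counts that moved by over 1.5 times were as follows. Mitochondrial members lower in *Nprl2* KO went from 0 to 1 without the filter and to 1 with the replicate block. Mitochondrial members lower on day 1 went from 5 to 3 with DESeq2. On day 3 against day 2, cytosolic members higher went from 1 to 2 with DESeq2 and to 2 with limma, and mitochondrial members lower from 3 to 1 with DESeq2 and to 0 with limma. On day 3 against day 0, limma gave 5 cytosolic members higher in place of 3 and 2 mitochondrial members higher in place of 1. The cause was not tested.

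Leaving out 1 library at a time, the count of mitochondrial members higher in *Tsc2* KO ranged from 1 to 2 (1 without the first wild-type or the second *Tsc2* KO library). Between the KOs, cytosolic members lower ranged from 1 to 4 and mitochondrial members lower from 1 to 2. Mitochondrial members lower on day 1 ranged from 3 to 6 (3 without the first or the second day 1 library). On day 3 against day 2, cytosolic members higher ranged from 0 to 2, mitochondrial members higher from 0 to 1 (0 without the second day 2 library) and mitochondrial members lower from 0 to 4. Where a genotype was left with 1 library, that library was assumed to vary like the other groups.

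Libraries with the same replicate number did not deviate together in the time course (correlations between -0.11 and 0.13), and with 2 numbers in GFP+ cells (0.08 to 0.16) the check cannot decide, so the numbers were not treated as pairs. Over all genes the replicate block raised the calls in *Nprl2* KO from 882 to 2071, and those in *Tsc2* KO from 3996 to 5256. The lowest estimated count was 71.9, but depth was not equal among members: in *Nprl2* KO against wild-type the SE ranged from 0.058 to 0.084 for cytosolic and from 0.075 to 0.17 for mitochondrial members, so that smaller changes could be called in the former.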
